A study of Rattus norvegicus with 7 samples.

Results

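The genes described here are 10 core genes of autophagy, Ulk1, Becn1, Wipi1, Atg5, Atg7, Atg12, Map1lc3b, Gabarapl1, Sqstm1 and Tfeb, measured in rat alveolar macrophages after exposure to zinc oxide nanoparticles (ZnO NPs). They were chosen by name: every non-control probe that the array files give one of these symbols was taken, which made 19 probes of 45598 on the array. The cells were NR8383, a line established from rat lung lavage that grows partly attached and partly floating. ZnO cells (3 replicates) were kept for 4 h with ZnO NPs and control cells (4 replicates) for the same time with none, both in medium without fetal bovine serum. The sample labels give 2 µg/mL of ZnO NPs, while the study's methods give a higher dose, and the stated seeding density also differs. Total RNA of each replicate was labelled with Cy3 and hybridised to 1 array, and no source says whether replicates with the same number were handled together. The comparison asks whether the transcripts of the autophagy machinery changed in the first hours of exposure to the particles.

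Autophagy encloses cytoplasm, damaged organelles or invading particles in a double membrane, the autophagosome, which then fuses with the lysosome. The ULK1 kinase complex starts the process, a lipid kinase complex with Beclin 1 marks the site with phosphatidylinositol 3-phosphate, and WIPI proteins read that mark. ATG7, ATG5 and ATG12 then take part in attaching proteins of the LC3 and GABARAP family to the membrane, where receptors such as p62 (Sqstm1) bring in cargo. In macrophages the same machinery also serves the handling of phagocytosed material, and transcripts report on the supply of these proteins, not on the flux through the pathway.

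No autophagy gene passed the test for a rise or a fall after ZnO. Of the 19 probes, 17 probes of 9 genes were bright enough to be tested: every array of the ZnO group, of the control group or of both showed them well above background. In limma's test, adjusted after Benjamini and Hochberg over all 20050 probes tested, 0 of the 17 passed an adjusted p of 0.05, where 0.0499% of all tested probes did (10 probes). At an unadjusted p of 0.05, 0 of the 17 probes passed, against 5.93% of all tested probes. For 0 of the 17 probes did the ZnO arrays lie wholly apart from the control arrays, against 7.39% of all tested probes. The log2 fold changes (ZnO minus control) ran from -0.54 to 0.13, with 7 probes above 0 and 10 below. Their median was -0.0082, against -0.0064 over all tested probes. The lowest value is that of Atg7 probe 3, which was tested through the control arrays alone, where it was higher. It is no support for a fall, and the next lowest value was -0.27, of Atg7 probe 2. All adjusted p values lay between 0.901 and 0.999. Probe values are the log2 of the background-subtracted intensity minus that of the array's 75th percentile, so that 0 is the level of the 75th percentile and levels of different probes are not comparable. RNA came from whole cultures, so that a change in the number of cells with a transcript and a change in its amount per cell cannot be told apart.

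**Figure D1:**
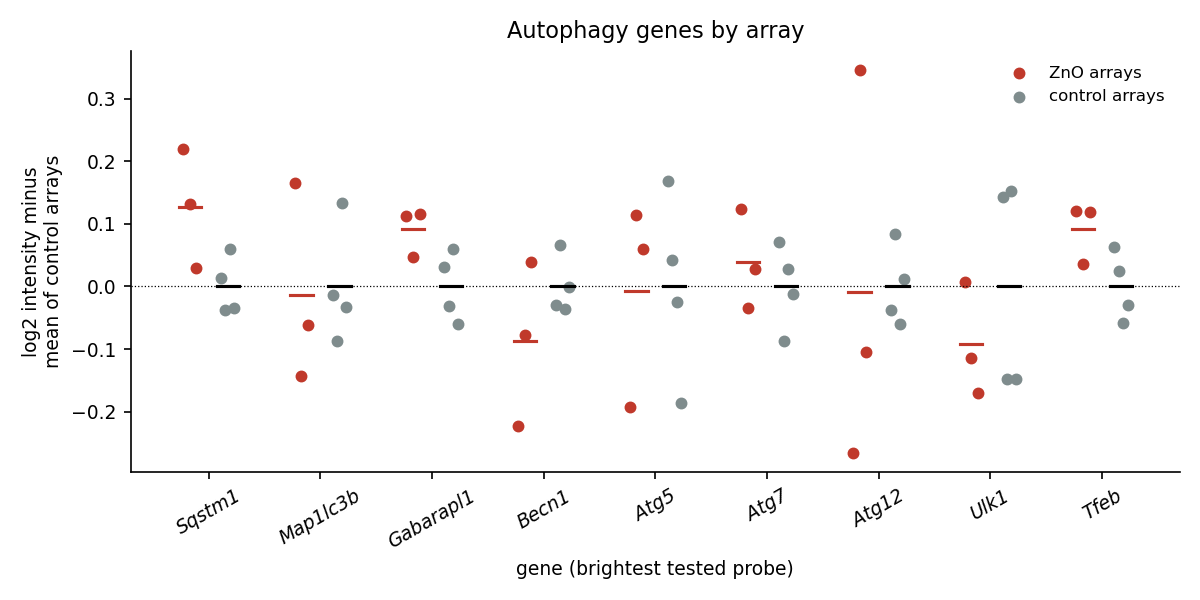
Log2 intensity of the brightest tested probe of 9 autophagy genes on each array, minus the mean of the control arrays (y axis), with ZnO arrays (3, red) left of control arrays (4, grey) and short bars at the group means. For every gene the ranges of the groups overlap, and the group means differ by at most 0.13.

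Genes known to respond to zinc rose on these arrays. Mt1a and Mt2A, metallothioneins that bind zinc, were higher in ZnO cells by 3.40 and 5.83 on the log2 scale, and Slc30a1, which exports zinc, by 1.37 (limma, adjusted p = 3.68e-05, 3.80e-06 and 0.00277). Of 12 macrophage markers 10 were measured and 0 passed the test (limma), with 1 lower in ZnO cells at an unadjusted p of 0.05, while Marco and Adgre1 were not well above background on all arrays of either group. None of 5 lymphocyte and none of 5 epithelial markers was measured, and of 4 fibroblast, 4 endothelial and 4 neutrophil markers 2 each were measured, none of which passed. The 75th percentile of the arrays was 980 to 1603 intensity units in ZnO cells and 958 to 1489 in control cells, and no spot was saturated. The extraction software rated ZnO 1, control 1 and control 2 as in range, and marked ZnO 2, ZnO 3, control 3 and control 4 for evaluation. Array weights, used only as an alternative, ran from 0.35 for ZnO 1 to 2.22 for ZnO 2. All arrays lay on 1 slide, the ZnO arrays in its second row and the control arrays in its first, and a difference between slide rows cannot be told apart from one of exposure. The first principal component (33.6% of the variance) set ZnO 1 and control 3 at one end, at -21.3 and -19.9, with the other 5 arrays between -8.28 and 18.8.

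The probes are 60 bases long. Those shown here read the coding part of a transcript. Becn1 and Wipi1 have no other probe, while Sqstm1, Map1lc3b and Atg7 each have a brighter probe that gives the value of the gene. Each probe shown is printed 5′ to 3′ as on the array, in lower case throughout, with its position on rn4 as the files give it. Where that position is longer than 60 bases, it spans more of the genome than the probe.
Sqstm1 probe 2 (chr10:35753589-35753648, strand -): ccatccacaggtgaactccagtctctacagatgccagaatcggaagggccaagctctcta
Map1lc3b probe 4 (chr19:51852782-51853426, strand +): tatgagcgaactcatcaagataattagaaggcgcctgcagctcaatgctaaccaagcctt
Map1lc3b probe 5 (chr19:51853554-51854448, strand +): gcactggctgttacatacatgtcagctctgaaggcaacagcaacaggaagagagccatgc
Atg7 probe 2 (chr4:150854179-150866191, strand +): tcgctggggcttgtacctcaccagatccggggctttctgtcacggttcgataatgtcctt
Becn1 (chr10:90318654-90319457, strand -): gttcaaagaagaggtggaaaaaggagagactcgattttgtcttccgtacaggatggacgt
Wipi1 (chr10:98749014-98749073, strand +): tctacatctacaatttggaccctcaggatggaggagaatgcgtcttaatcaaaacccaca
The number of a probe is its rank by mean intensity among the probes of its gene.

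Ulk1, the kinase that starts autophagosome formation, had 1 probe (chr12:46022440-46022499, strand +). Its values were 1.5, 1.38 and 1.33 in ZnO cells, against 1.64, 1.35, 1.65 and 1.35 in control cells. Control 1 and control 3 were high, control 2 and control 4 were at the level of the ZnO arrays, and the groups overlapped. The means were 1.40 ± 0.091 in ZnO cells and 1.5 ± 0.17 in control cells (SD, n = 3 and 4), a log2 fold change of -0.093 with a 95% interval of -0.34 to 0.16 (limma, adjusted p = 0.981).

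Becn1 codes for Beclin 1, the scaffold of the lipid kinase complex that nucleates the membrane. Its values were 0.80, 0.94 and 1.06 in ZnO cells and 0.99, 1.09, 0.99 and 1.02 in control cells. ZnO 1 was the lowest array, ZnO 2 was also below every control array, and ZnO 3 lay among the control arrays. The log2 fold change was -0.087 (95% interval -0.28 to 0.10, limma, adjusted p = 0.971).

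Wipi1, a reader of phosphatidylinositol 3-phosphate on the forming membrane, was not well above background on any of the 7 arrays and was not tested. It was listed at -6.34, -7.90 and -8.04 in ZnO cells and at -8.29, -7.95, -6.99 and -7.48 in control cells, values that have no order below background. On the scale of the scanner these are 5.45 to 12.1 intensity units in ZnO cells and 4.2 to 9.28 in control cells.

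Atg7, Atg5 and Atg12 belong to the conjugation machinery. ATG7 is the activating enzyme of both ubiquitin-like systems of autophagy, and the ATG12-ATG5 conjugate helps to transfer LC3 to lipid. Atg5 (chr20:48366259-48366318, strand +) read -3.66, -3.35 and -3.40 in ZnO cells, against -3.29, -3.42, -3.49 and -3.65 in control cells. Atg12 (chr18:40934797-40934856, strand -) read -4.30, -3.69 and -4.14 in ZnO cells, against -4.07, -3.95, -4.10 and -4.02 in control cells. In Atg5 ZnO 1 lay just below the lowest control array, and ZnO 2 and ZnO 3 lay among the control arrays. In Atg12 no ZnO array lay among the control arrays: ZnO 1 and ZnO 3 lay below all of them and ZnO 2 above. The log2 fold changes were -0.0065 for Atg5 (95% interval -0.27 to 0.25) and -0.0082 for Atg12 (-0.34 to 0.32), each at an adjusted p of 0.999 (limma). Both probes were dim, at 77.7 to 152 intensity units in ZnO cells and 76.4 to 139 in control cells for Atg5, and at 49.6 to 101 in ZnO cells and 58.9 to 96.2 in control cells for Atg12.

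For Atg7 the array holds 4 probes, each for another transcript model. Atg7 probe 1 (chr4:150993864-150993923, strand +), for predicted variant X2, read 0.38, 0.22 and 0.28 in ZnO cells and 0.32, 0.17, 0.28 and 0.24 in control cells, and its log2 fold change was 0.039 (95% interval -0.13 to 0.21, adjusted p = 0.999). Atg7 probe 2, for the curated transcript, read 0.37, -0.17 and -0.16 in ZnO cells, against 0.20, 0.14, 0.34 and 0.47 in control cells. Here ZnO 2 and ZnO 3 were below every control array while ZnO 1 was among the highest, so that the groups overlapped and the log2 fold change of -0.27 had a 95% interval of -0.63 to 0.078 (limma, adjusted p = 0.901). Atg7 probe 3 (chr4:150915074-150915133, strand +), for predicted variant X1, showed the same order of the ZnO arrays, at -4.73, -6.20 and -5.76 in ZnO cells and -5.14, -5.13, -4.69 and -5.11 in control cells. That probe was well above background on 1 of 3 ZnO arrays and on 4 of 4 control arrays, so that it was tested through the control arrays alone, where it was higher, and its log2 fold change was -0.54 (95% interval -1.28 to 0.20, adjusted p = 0.909). Atg7 probe 4, for predicted variant X3, was well above background on 1 ZnO and 1 control array and was not tested. The sign for this gene depended on the probe, as Atg7 probe 1 and Atg7 probe 2 show. The mean of the 3 tested Atg7 probes gave a log2 fold change of -0.26. That mean includes Atg7 probe 3, which was tested only through the group where it was higher, so it is no support for a fall. ZnO 1, the array on which Atg7 probe 2 and Atg7 probe 3 stood highest among the ZnO arrays, is the one at the end of the first principal component, whose part in these values was not tested.

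Map1lc3b and Gabarapl1 code for members of the LC3 and GABARAP family, which are attached to the autophagosome membrane; the LC3B protein is the usual marker of autophagosomes. Map1lc3b had 5 probes, all tested. Map1lc3b probe 1 (chr19:51854787-51854846, strand +) read 3.64, 3.33 and 3.41 in ZnO cells, against 3.46, 3.39, 3.61 and 3.44 in control cells. The highest arrays were ZnO 1 and control 3, and the other 5 lay between 3.33 and 3.46. The means were 3.46 ± 0.16 in ZnO cells and 3.47 ± 0.094 in control cells (SD, n = 3 and 4), a log2 fold change of -0.013 (95% interval -0.24 to 0.21, limma, adjusted p = 0.999).

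The other Map1lc3b probes gave log2 fold changes of -0.052, 0.045, -0.014 and -0.067 in the order of their number, each at an adjusted p of 0.999. Map1lc3b probe 2 shares 43 bases with Map1lc3b probe 1 and has no position in the files. Map1lc3b probe 5 read 0.26, -0.08 and -0.12 in ZnO cells and 0.08, -0.05, 0.30 and 0.02 in control cells. Map1lc3b probe 1, Map1lc3b probe 2 and Map1lc3b probe 5 thus had the same pair of high arrays, ZnO 1 and control 3. The first principal component set this pair apart from the rest, while the second put ZnO 1 at -11.3 and control 3 at 23.0. The part of either component in these values was not tested. Map1lc3b probe 4 read 0.96, 1.00 and 0.90 in ZnO cells and 0.93, 0.94, 1.08 and 0.92 in control cells, with control 3 high and ZnO 1 among the rest.

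**Figure D2:**
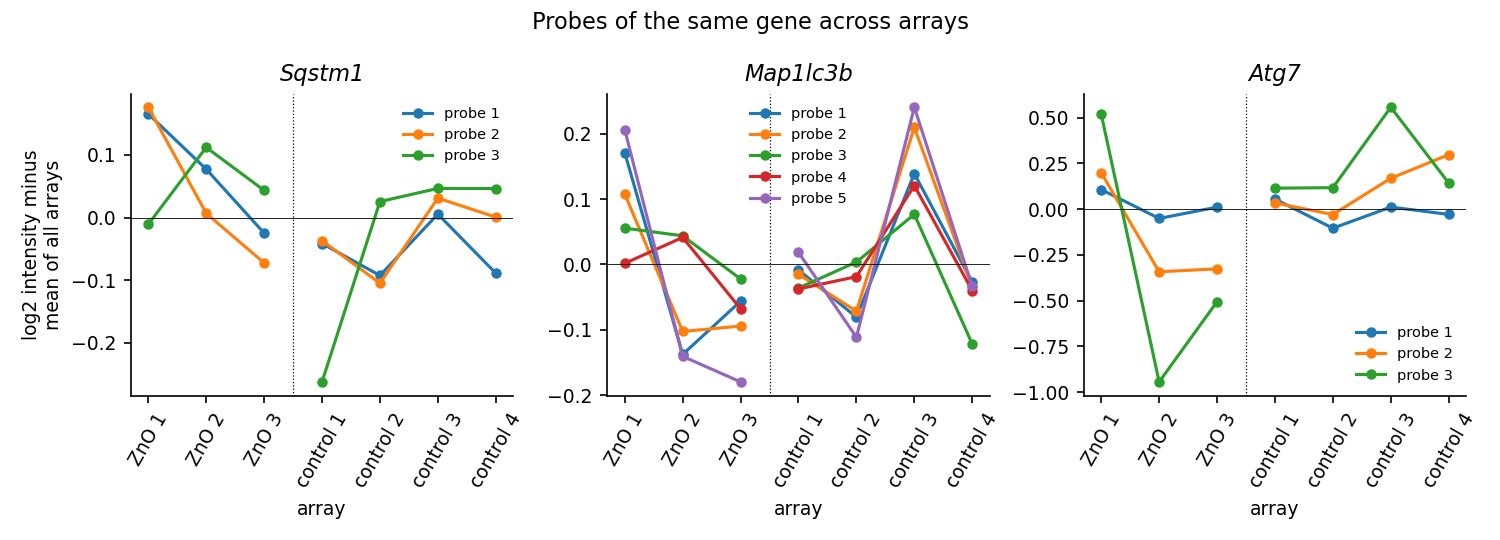
Log2 intensity of each tested probe of Sqstm1, Map1lc3b and Atg7 minus its mean over the 7 arrays (y axis, own scale in each panel), for ZnO arrays left of the dotted line and control arrays right of it; lines only join the points of a probe. Map1lc3b probe 1, probe 2 and probe 5 are high on ZnO 1 and control 3, and Atg7 probe 2 and probe 3 are high on ZnO 1 alone among the ZnO arrays.

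Gabarapl1 and Map1lc3b probe 3 were printed 10 times on each array, which gives the spread of single spots beside that between cultures. Gabarapl1 (chr4:166811168-166811227, strand +) read 3.90, 3.84 and 3.91 in ZnO cells, against 3.82, 3.76, 3.85 and 3.73 in control cells. Of the control arrays only control 3 reached the range of the ZnO arrays, which it entered above ZnO 2. The means were 3.88 ± 0.039 in ZnO cells and 3.79 ± 0.055 in control cells (SD, n = 3 and 4), a log2 fold change of 0.091 (95% interval -0.062 to 0.24, limma, adjusted p = 0.945). The SD between spots of 1 array was 0.071 to 0.079 on the ZnO arrays and 0.045 to 0.095 on the control arrays. Map1lc3b probe 3 (chr19:51853724-51853783, strand +) read 2.86, 2.85 and 2.78 in ZnO cells and 2.77, 2.81, 2.88 and 2.68 in control cells, with an SD between spots of 0.061 to 0.10 on the ZnO arrays and 0.059 to 0.10 on the control arrays. Its position lies inside the longer stretch that the files give for Map1lc3b probe 5.

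**Figure D3:**
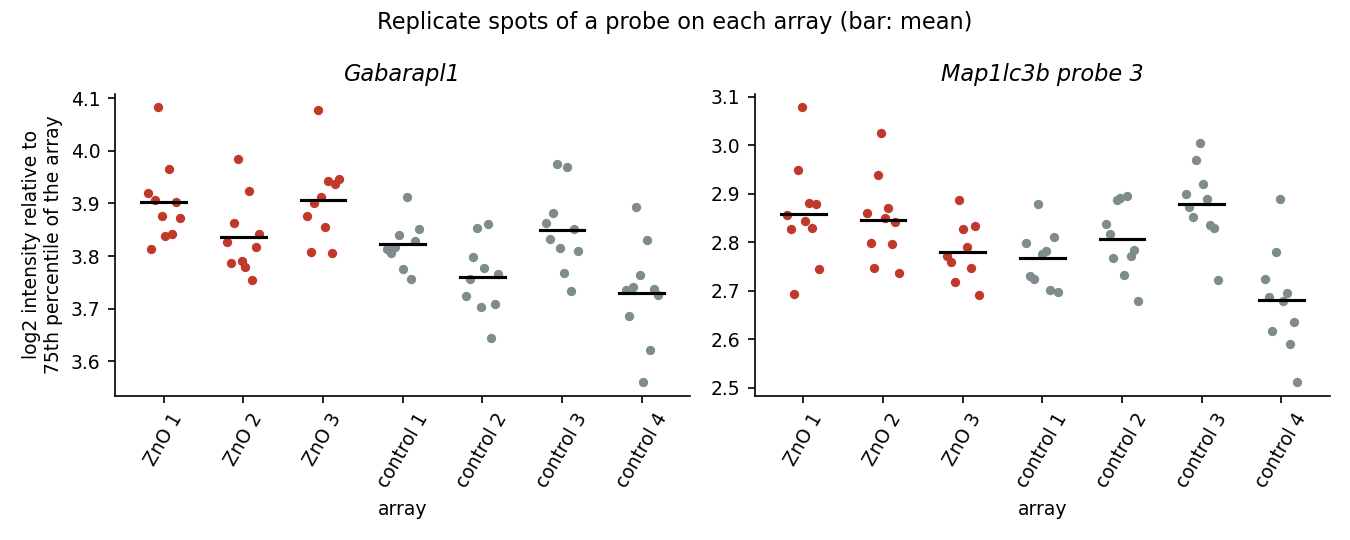
Log2 intensity relative to the 75th percentile of the array (y axis) of each spot of Gabarapl1 (left panel) and of Map1lc3b probe 3 (right panel) on ZnO arrays (red) and control arrays (grey), without outlier spots; bars are means over the 9 or 10 spots used. Spots of the same array overlap those of every other array in the Gabarapl1 panel and in the Map1lc3b panel.

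Sqstm1 codes for p62, which binds ubiquitinated cargo and LC3 and is itself degraded by autophagy. Sqstm1 probe 1 (chr10:35751303-35751362, strand -) read 4.57, 4.48 and 4.38 in ZnO cells, against 4.36, 4.31, 4.41 and 4.32 in control cells. ZnO 1 and ZnO 2 were above every control array and ZnO 3 was below control 3. The means were 4.48 ± 0.095 in ZnO cells and 4.35 ± 0.046 in control cells (SD, n = 3 and 4). This was the highest log2 fold change among the tested probes of the 10 genes, at 0.13 with a standard error of 0.073 and a 95% interval of -0.042 to 0.30, which corresponds to a fold change of 1.09 (0.971 to 1.23), and it did not pass the test (limma, adjusted p = 0.906).

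Sqstm1 probe 2, in the coding part of the transcript, read 2.27, 2.10 and 2.02 in ZnO cells and 2.06, 1.99, 2.13 and 2.10 in control cells, a log2 fold change of 0.064 (95% interval -0.13 to 0.26, adjusted p = 0.987). Sqstm1 probe 3 (chr10:35759331-35759390, strand -), for transcript variant 2, read 1.98, 2.10 and 2.04 in ZnO cells and 1.73, 2.02, 2.04 and 2.04 in control cells, a log2 fold change of 0.084 (95% interval -0.14 to 0.31, adjusted p = 0.981). All 3 Sqstm1 probes were above 0 and all had overlapping groups. The array that stood apart differed between them: ZnO 1 was highest for probe 1 and probe 2, whereas control 1 was low for probe 3.

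Tfeb codes for a transcription factor that switches on lysosomal and autophagy genes when it enters the nucleus. Its probe (chr9:8665358-8665417, strand -) read -1.86, -1.95 and -1.86 in ZnO cells, against -1.92, -1.96, -2.04 and -2.01 in control cells. ZnO 1 and ZnO 3 were above every control array and ZnO 2 was inside their range. The log2 fold change was 0.092 with a standard error of 0.067 and a 95% interval of -0.064 to 0.25 (limma, adjusted p = 0.945).

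The size of change that these arrays could have called was set by the spread of each probe. The largest p that passed the adjustment was 1.94e-05, and with its own standard error a probe needed a log2 difference of 0.62 for Gabarapl1, 0.63 for Tfeb, 0.69 for Sqstm1 probe 1, 0.91 for Map1lc3b probe 1 and 1.33 for Atg12 to reach it. The least precise was Atg7 probe 3, which needed 3.00. A further probe could have passed at a p slightly above that one, so these sizes are approximate. Changes well below these sizes were not detectable as calls in these 7 arrays, so their absence is not shown. The intervals bound them: for 15 of the 17 probes the 95% interval lay inside a fold change of 1.5 either way, against 82.7% of all tested probes. The exceptions were Atg7 probe 2 and Atg7 probe 3, both on the lower side, where Atg7 probe 3 was tested through the control arrays alone. By the brightest tested probe of each gene, a rule that leaves out both exceptions, the interval lay inside that range for 9 of 9 genes. The share over all genes by that rule was not computed.

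**Figure D4:**
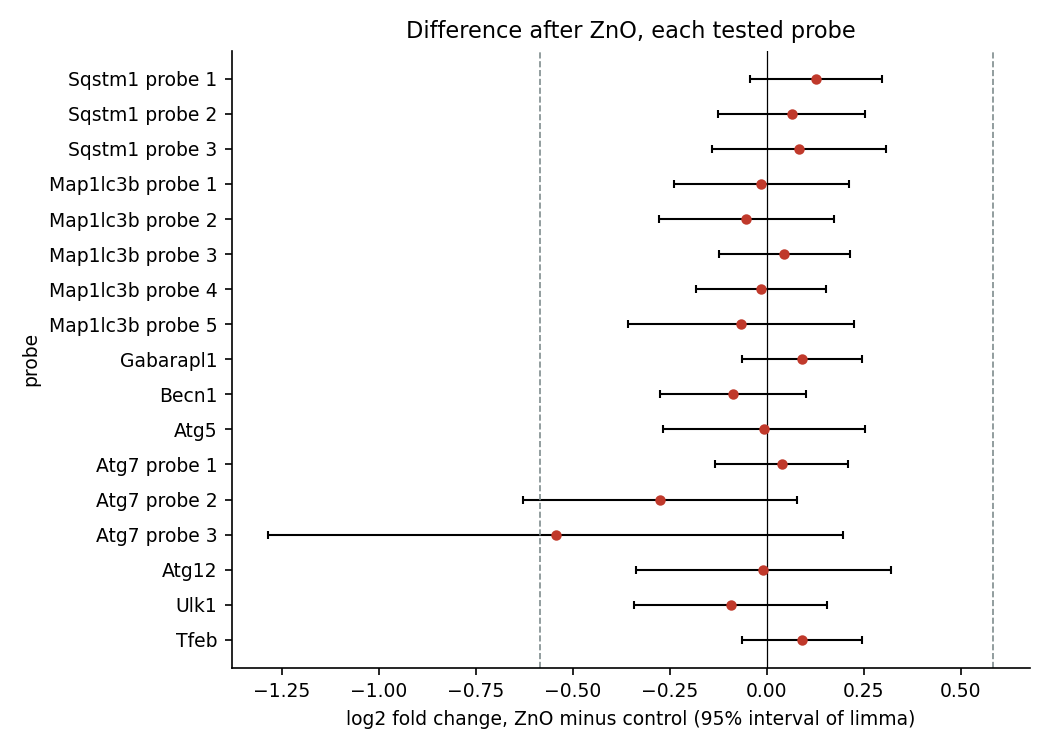
Log2 fold change (ZnO minus control, x axis) of the 17 tested probes of the autophagy genes with limma's 95% interval (bars); dashed lines mark a fold change of 1.5 either way. Every interval crosses 0, and only those of Atg7 probe 2 and Atg7 probe 3 reach past a dashed line.

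No other gene of the pathway list passed the test either. In a list of 65 genes of 8 roles that holds the 10 genes, 61 were tested, of which 0 rose and 0 fell at an adjusted p of 0.05 (limma), where 0.065% of all genes passed. At an unadjusted p of 0.05, 1 gene was higher and 1 lower, against 2.92% and 2.77% of all genes. Shares over all genes, here and below, refer to the 10771 tested genes that were matched to a current gene name. Of the 61 genes 25 were above 0 and 36 below, which is 59.0% below against 52.3% of all genes, with a median log2 fold change of -0.02 against -0.0067 over all genes. Wipi1, Fundc1 and Retreg1 were not bright enough to be tested, and no probe was found for Calcoco2.

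The gene with the lowest p on the higher side was Atg14, the subunit that brings the Beclin 1 complex to the site of autophagosome formation. It read -1.51, -1.66 and -1.51 in ZnO cells, against -1.73, -1.73, -1.69 and -1.80 in control cells. The groups did not overlap, and the log2 fold change of 0.18 (standard error 0.072) did not pass the adjustment (limma, adjusted p = 0.83). On the lower side it was Tp53inp1, a p53-induced protein that binds LC3. It read -0.49, -0.51 and -0.13 in ZnO cells, against -0.05, -0.08, -0.02 and 0.11 in control cells. Its log2 fold change was -0.37 (95% interval -0.63 to -0.11, limma, adjusted p = 0.714), and its other 3 probes gave -0.32 to -0.05. ZnO 3 was close to the control arrays.

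Counted by role on their log2 fold changes, 1 of 5 genes of the initiation complex was above 0 and 4 below, with Atg101, a subunit that stabilises ATG13, at -0.12. Of 8 genes of the nucleation complex 3 were above 0 and 5 below. Among 8 tested readers of the lipid mark and lipid carriers 1 was above 0 and 7 below, with Atg2a, which carries lipids to the growing membrane, at -0.17. The 10 conjugation enzymes split into 5 above and 5 below, with Atg4c, a protease that trims LC3-family proteins, at 0.17. In the LC3 and GABARAP family 2 of 5 were above 0 and 3 below. Gabarap read 4.93, 4.87 and 4.89 in ZnO cells, against 4.96, 5.16, 5.12 and 5.00 in control cells, all ZnO arrays being below all control arrays, with a log2 fold change of -0.16 (95% interval -0.34 to 0.01, limma, adjusted p = 0.867). Of 10 tested cargo receptors 4 were above 0 and 6 below, with Sqstm1 the farthest from 0. For fusion with the lysosome 4 of 7 were above 0, with Vamp8, a SNARE protein of that step, at 0.11. Of 8 transcription factors and p53-induced regulators 5 were above 0 and 3 below. None of these genes passed the test. The groups did not overlap in 5 of the 61 genes, against 7.87% of all genes: Atg14, Gabarap and Tp53inp1, and, chosen after their values were seen, Wdfy3 (log2 fold change -0.11) and Zkscan3 (log2 fold change 0.22).

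**Figure D5:**
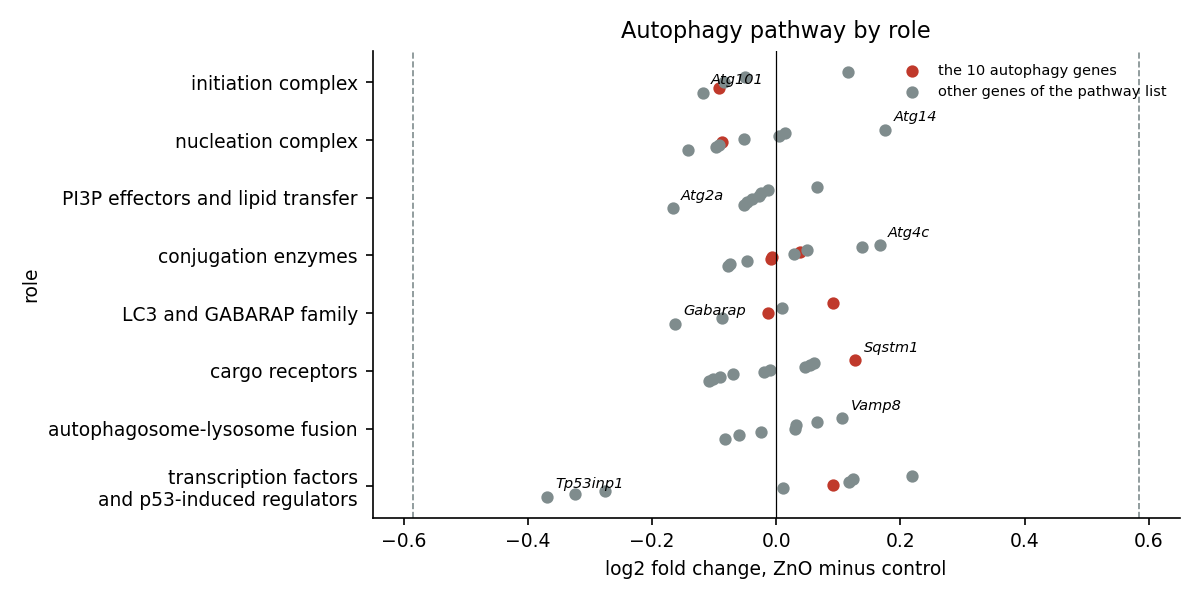
Log2 fold change (ZnO minus control, x axis) of the 61 tested genes of the autophagy pathway list by role (y axis), with the 10 genes described here in red (9 tested) and the other genes in grey; points of a role are spread vertically only to be seen. All points lie between -0.37 and 0.22, inside the dashed lines at a fold change of 1.5 either way.

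Values over the 7 arrays were compared with those of 10764 other genes matched to a current gene name. The genes that followed Sqstm1 probe 1 most closely were Fam76b (Pearson's r = 0.99), RT1-A1 (0.97) and Tnnt2 (0.97), and 46 genes were above 0.9. For Map1lc3b probe 1 they were Rpl19-ps25, Ech1 and Prdx2 (each 0.98), and 168 genes were above 0.9. These values describe 7 arrays that share a slide and the components named above, with no test.

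Promoter sequences (RefSeq, GRCr8, 250 bases before to 50 after the start of the gene) were given for 9 of the 10 genes, all except Becn1. Both strands were searched for the core of the metal response element in the forms TGCACNC and TGCGCNC, for the antioxidant response core TGACNNNGC and for the E-box CACGTG, the core of the sites that TFEB binds. Of all 27457 promoters 12.2%, 15.0%, 12.2% and 6.65% held each of them in that order. Matches of different motifs may overlap in part, which they did not in the promoters printed here. Among the 9 promoters a metal response core was found once in Map1lc3b and once in Atg5, an antioxidant response core once in Map1lc3b and an E-box once in Atg5. The same window held 6 metal response cores in Mt1, the gene of Mt1a, 4 in Mt2A and 2 in Slc30a1, where 25.0% of all promoters held at least 1 and 0.455% at least 4. The promoters of Map1lc3b and Atg5 are printed because they alone among the 9 held a metal response core, beside the 3 zinc-responsive genes above that held more. Capitals mark the matches: in Map1lc3b the metal response core, read on the opposite strand, and the antioxidant response core, and in Atg5 the metal response core and the E-box.
Map1lc3b (GRCr8 chr19:66574345-66574644, strand +): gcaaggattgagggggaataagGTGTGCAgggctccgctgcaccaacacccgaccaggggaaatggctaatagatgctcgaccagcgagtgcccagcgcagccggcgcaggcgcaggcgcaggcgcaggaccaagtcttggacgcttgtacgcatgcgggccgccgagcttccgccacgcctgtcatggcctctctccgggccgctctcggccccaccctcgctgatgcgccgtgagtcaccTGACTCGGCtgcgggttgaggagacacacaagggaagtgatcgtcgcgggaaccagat
Atg5 (GRCr8 chr20:49380585-49380884, strand +): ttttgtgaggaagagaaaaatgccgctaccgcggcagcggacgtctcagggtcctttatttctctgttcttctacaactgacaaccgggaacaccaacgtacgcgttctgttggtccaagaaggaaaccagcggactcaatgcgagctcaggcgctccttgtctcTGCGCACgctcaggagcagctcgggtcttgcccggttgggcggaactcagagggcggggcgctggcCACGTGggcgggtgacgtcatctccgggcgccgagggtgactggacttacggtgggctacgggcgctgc
A match is a stretch of letters in this window and not a measured binding site, and the log2 fold changes (ZnO minus control) given above were -0.013 for Map1lc3b and -0.0065 for Atg5.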

How the data were processed

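Total RNA of NR8383 cells was hybridised to one-color Agilent rat arrays, 1 for each of 3 ZnO and 4 control replicates. The authors extracted the intensity of each spot with Agilent Feature Extraction 11.0.1.1, which subtracts the background and removes trends across the array. This intensity, not yet scaled from array to array, is what the deposited files of single arrays hold. A deposited table that covers all arrays held median spot intensities of the scanner and served as an alternative. The study's percentile normalization does not state its percentile or its test.

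Control spots were left out. The log2 of the deposited intensity minus that of the array's 75th percentile was averaged over the spots of a probe, outlier spots excluded. Tested probes had most of their spots well above background on every array of the ZnO group, the control group or both. The fit used limma 3.58.1 under R 4.3.3 (functions lmFit and eBayes). Its p values were adjusted after Benjamini and Hochberg over all probes tested and read at 0.05, and it also gave the standard errors and 95% intervals. The script was tested on simulated data. The number of arrays limits the precision. The p values set the difference between groups against the spread between replicates, which eBayes moderates over all probes tested. A two-sided exact permutation test of 3 against 4 arrays cannot go below 0.0571 and was not used. A gene has the value of its brightest tested probe. Of the 45598 probes, 21109 were matched to current gene names by accession and 7115 by symbol, and 17374 kept the name of the files. Tables were handled in Python 3.11.15 (pandas 2.3.3, numpy 2.4.6, matplotlib 3.10.9) and in R with version 1.17.8 of data.table.

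The 10 genes, the pathway list and the markers were chosen with earlier results of these data known. Beside the 10 genes, the text names the genes of the pathway list with the lowest unadjusted p in each direction (up to 3 under 0.05), the gene farthest from 0 in each role, Mt1a, Mt2A and Slc30a1, and the 3 genes most like Sqstm1 and Map1lc3b over the arrays. Alternatives changed the normalization, the centring, the background correction, the source table, the filter on dim probes, the variance model, the array weights, the replicate block, the threshold, the probe rule and the arrays included.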

Additional observations from a re-analysis of the deposited data

Results flagged for a closer look

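Groups of 4 control arrays were checked for an array far from the others by Dixon's test at its 95% critical value. It was run on 24 groups of autophagy probes and named pathway genes, and chance alone marks about 1 group in 20. In 3 probes of the autophagy genes a control array stood apart. Sqstm1 probe 3 was low on control 1, at 1.73, with the other control arrays at 2.02 to 2.04. Map1lc3b probe 4 was high on control 3, at 1.08, with the others at 0.92 to 0.94. Atg7 probe 3 was high on control 3, at -4.69, with the others at -5.14 to -5.11.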

How the results depend on the processing

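No autophagy gene and no gene of the pathway list passed the test under any of the alternatives, with lowest adjusted p values (limma) of 0.541 for the 10 genes and 0.318 for the named genes of the list, none of which changed sign. Over all probes, 10 were higher and 0 lower in ZnO cells. The probes higher were 5 without a filter on dim probes, 4 with the replicate number as a block, 4 at the thresholds of the methods (0.001 for the adjusted p, with a fold change above 1.5), and 7 to 8 with an array left out. The probes lower were 1 with quantile normalization, 1 with centring on the median, 4 with a trended and robust variance, 2 with array weights, and 0 to 0 with an array left out. The cause of these shifts was not tested. Deviations from the group means correlated at -0.14, 0.25 and -0.31 for same-numbered arrays, and at -0.47 to 0.39 for arrays of different numbers. With 3 and 4 arrays these values cannot decide whether replicate numbers pair the samples. The block moved no autophagy gene past the threshold.

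Of 162 alternative log2 fold changes of the autophagy genes, 16 turned in sign, all of them in genes near 0. Atg12 gave 0.0072 with normexp background correction, 0.0027 from the deposited table and 0.13 with array weights. Atg5 gave 0.021 with array weights. Atg7 gave -0.0095 from the deposited table and -0.26 as the mean of its tested probes, which include Atg7 probe 3, tested through the control arrays alone. With an array left out, Atg12 ran from -0.19 to 0.12 (above 0 without ZnO 1, ZnO 3 or control 2), Atg5 from -0.069 to 0.087 (above 0 without ZnO 1, control 1 or control 2), Map1lc3b from -0.10 to 0.052 (above 0 without ZnO 2, ZnO 3 or control 3) and Atg7 from -0.0032 to 0.076 (below 0 without ZnO 1). Becn1, Gabarapl1, Sqstm1, Tfeb and Ulk1 kept their sign in all settings run. Signal over background limits Wipi1 and Atg7 probe 4, which were not tested, and Atg7 probe 3, Atg5 and Atg12, whose probes were dim.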
